A study of Mus musculus with 3 samples.

Results

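Haemoglobin and erythroid genes were examined in neural retina of Rp1-/- mice. The set comprised Hba-a1 (an adult alpha globin chain), Hbb-b2 (an adult beta globin chain) and Alas2 (the erythroid form of the enzyme that starts haem synthesis), 3 genes of 8251 with a probe set assigned to a single symbol. The members were chosen by name, with earlier results on the signals of these same arrays known, and each was represented by 1 probe set of the 12422 that were not controls. Their signals and differences between pools are therefore given as a description, with no test. The series held 3 arrays in 1 group: each carried RNA from a pool of neural retinas of 3 to 4 mice with the Rp1 knockout on a mixed 129/SvEv and C57BL/6 background, taken at postnatal day 10 between 1 and 2 pm. No array of another genotype was analysed here, so the comparisons are between pools of mutant retina. The pools are numbered in accession order, the numbers being names only. All descriptions give the Rp1 knockout, but the title of pool 1 lacks the rp1 tag of the other titles. Nothing in the labels says whether pools shared litters, so the spread is that between these RNA samples.

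Haemoglobin is a tetramer of alpha-like and beta-like globin chains, each of which holds a haem group with iron, and it carries oxygen in red blood cells. Embryonic globins are replaced during development by adult chains encoded in the same gene clusters. Young red cells (reticulocytes) have lost their nucleus and still contain large amounts of globin transcript, and globin transcripts have also been described in some neurons and in cells of the retina. Haem is made by a chain of enzymes that starts with Alas1 in most cells and with Alas2 in the erythroid lineage.

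Both adult globins gave strong signals in every pool and were highest in pool 1, while Alas2 lay near the background. A signal is a scaled intensity in arbitrary units. It was compared with a background floor, the 90th percentile of 19 bacterial and yeast control probe sets on the same array, which was 100.5, 124.8 and 120.4 units in pools 1, 2 and 3. All 3 members were above the floor in all 3 pools. Signals of different probe sets are not comparable as amounts of transcript, so each gene is compared only with itself across pools. A sum of signals over a list is likewise compared only with the sum of that list in other pools. Such a sum is weighted towards the brighter probe sets.

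The promoters of the members that RefSeq's table holds are shown first, as a description of sequence only. Their part in the differences between pools was not tested. The printed stretches are the 150 bases before the transcription start (build GRCm38.p6), and 2 of the 3 members, Hba-a1 and Alas2, had an entry. Capitals mark matches on either strand to a promoter box with the letters CCAAT, to the box CACCC that Klf-type factors can bind, to the core GATAA recognised by GATA-binding factors, and to the start-site element TATAA. The Hba-a1 stretch lies at chr11:32283522-32283671 and that of Alas2 at chrX:150547267-150547416, both on the plus strand.
Hba-a1: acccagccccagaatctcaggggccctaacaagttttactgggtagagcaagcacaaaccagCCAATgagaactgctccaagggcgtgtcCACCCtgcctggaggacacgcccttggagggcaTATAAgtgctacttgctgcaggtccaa
Alas2: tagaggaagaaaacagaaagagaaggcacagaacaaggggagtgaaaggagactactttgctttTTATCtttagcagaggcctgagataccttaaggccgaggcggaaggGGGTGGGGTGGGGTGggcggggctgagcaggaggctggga
The Hba-a1 promoter had a CCAAT box beginning 88 bases, a CACCC box 60 bases and a TATAA match 27 bases before the start. Farther out, beyond the printed stretch, were another CACCC box at 167 bases and a GATAA match at 182 bases. The Alas2 promoter had a GATAA match on the opposite strand beginning 86 bases before the start, and neighbouring CACCC matches on the opposite strand at 40, 35 and 30 bases. Its TATAA matches, at 207 bases on the forward strand and 208 bases on the other, overlap each other and lie outside the printed stretch. Across all 32851 promoters of the table, 33.8% held CCAAT in the 250 bases before the start, and 52.0% held CACCC. The core GATAA was in 22.6% of them, and the element TATAA in 22.8%. These letters are common, and a match describes the sequence without showing that a factor binds it.

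Hba-a1 was the member that differed most between pools. Its signal was 16422.3 in pool 1, 9461.1 in pool 2 and 8110.5 in pool 3, a mean of 11331 ± 4460 (SD, n = 3). As deposited, pool 1 stood apart from pools 2 and 3. On the log2 scale pool 1 exceeded pool 2 by 0.80 (1.74-fold) and pool 3 by 1.02 (2.02-fold), and pool 2 exceeded pool 3 by 0.22 (1.17-fold). With quantile normalization the spacing was more even, at 0.69 for pool 1 over pool 2 and 0.41 for pool 2 over pool 3. The SD of its log2 signal was 0.54, against a median of 0.17 among the 200 measured probe sets nearest in mean signal, and 95.5% of those had a lower SD. Without pool 1 this SD was 0.16. The SD of like probe sets is given for scale only. With 1 array per pool, the array-to-array error of a single pool is not known.

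Hbb-b2 had the same order of pools. Its signal was 3819.7 in pool 1, 2995.5 in pool 2 and 2195.6 in pool 3, a mean of 3004 ± 812 (SD, n = 3). Pool 2 lay between the other two, without a pool that stood clearly apart. Pool 1 exceeded pool 3 by 0.80 on the log2 scale (1.74-fold) and pool 2 by 0.35 (1.27-fold), and pool 2 exceeded pool 3 by 0.45 (1.36-fold). The SD of log2 signal was 0.40, against a median of 0.20 among the 200 probe sets nearest in signal, of which 89.5% had a lower SD. Without pool 3 it was 0.25.

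Alas2 had a signal of 299 in pool 1, 215.1 in pool 2 and 239.6 in pool 3, a mean of 251.2 ± 43.1 (SD, n = 3). It was again highest in pool 1, but pool 3 was above pool 2. In no pool did its signal exceed 2.98 times the floor. Pool 1 exceeded pool 2 by 0.48 (1.39-fold) and pool 3 by 0.32 (1.25-fold) on the log2 scale, and pool 2 was below pool 3, with a difference of -0.16. Its SD of 0.24 was under the median of 0.35 for the 200 probe sets nearest in signal, 30.5% of which had a lower SD. Without pool 1 it was 0.11. Its probe set is of the s class, which marks probes that can bind more than 1 related transcript.

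**Figure D1:**
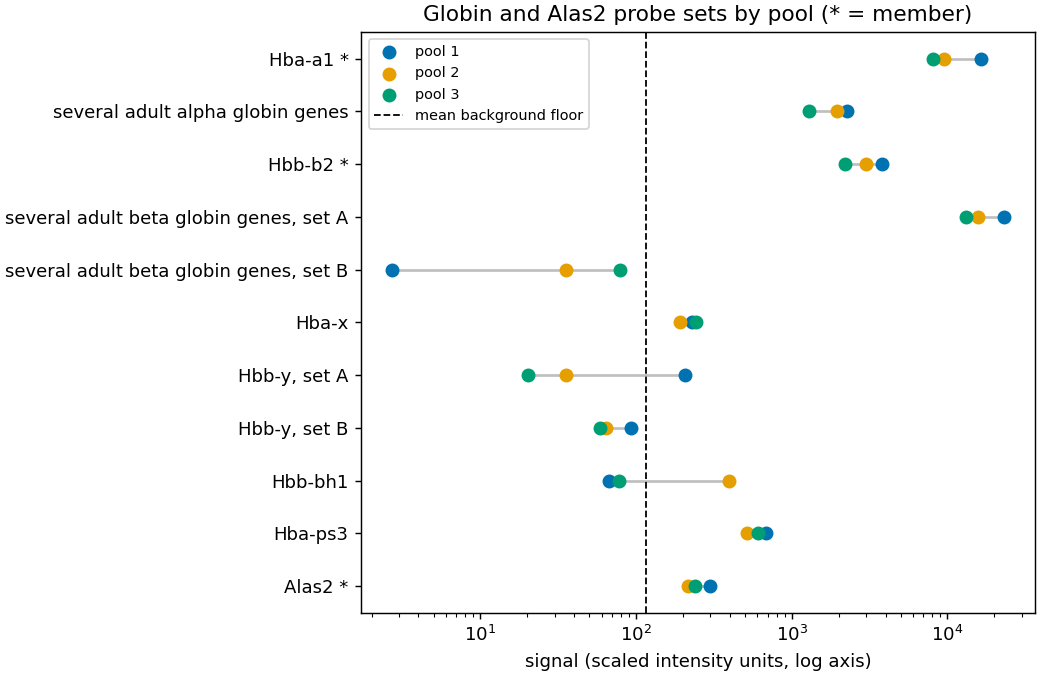
Signal of each globin probe set and of Alas2 on the 3 arrays (horizontal log axis, scaled intensity units). Each point is 1 pool, the grey line joins the lowest and highest pool, and the dashed line is the mean background floor. The 4 adult globin probe sets above the floor have their points in the order pool 1, pool 2, pool 3 from high to low, and Hbb-y and Hbb-bh1 have pools under the floor.

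The members' differences are set beside those of all genes. Of 6210 measured genes, meaning genes whose mean signal exceeded the mean floor, 10.3% were more than 1.5-fold higher in pool 1 than in pool 2, and 1 of the 3 members was (Hba-a1). Against pool 3, 10.9% of measured genes and 2 of 3 members (Hba-a1 and Hbb-b2) were more than 1.5-fold higher in pool 1. No member passed 1.5-fold between pools 2 and 3, where 10.7% of measured genes were higher in pool 2 and 8.74% higher in pool 3. Nor was any member more than 1.5-fold lower in pool 1 than elsewhere, against 12.5% of measured genes for pool 2 and 10.4% for pool 3. All 3 members were highest in pool 1, where 34.6% of measured genes had their highest signal. The order pool 1, pool 2, pool 3 was shared by 2 of 3 members and by 17.2% of measured genes. Nothing is read from the members' counts, since their signals were known when they were chosen.

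**Figure D2:**
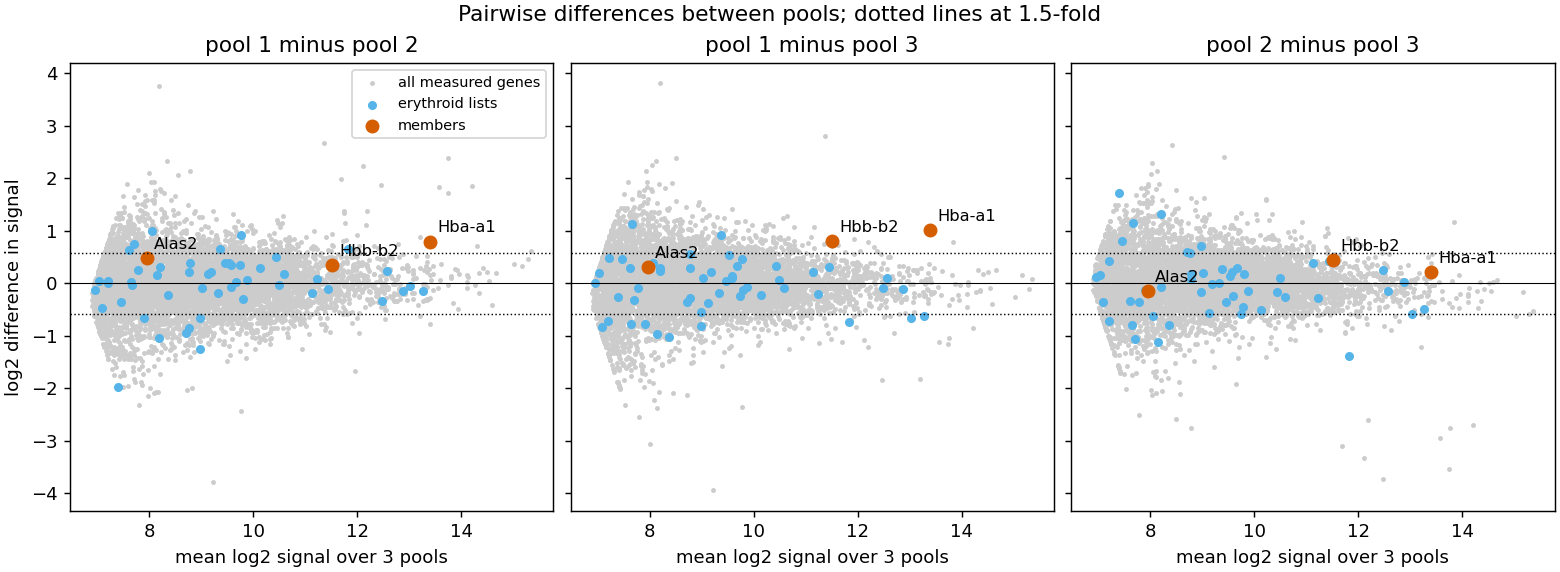
Log2 difference in signal between each pair of pools (vertical axis) against mean log2 signal over the 3 pools (horizontal axis). Grey points are the 6210 measured genes, blue points the 51 measured genes of the erythroid lists and orange points the members, with dotted lines at 1.5-fold. Hba-a1 lies above the upper line in both differences that involve pool 1, Hbb-b2 only in pool 1 minus pool 3, and Alas2 in none.

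Other probe sets for adult globins showed the same order. The rule took probe sets with a single symbol, and 3 further ones are assigned to several adult globin genes at once and cannot be given to any of them. The first, assigned to several adult beta globin genes, had a signal of 23069.3 in pool 1, with 15795.1 and 13084.7 in the others, pool 2 being the higher of them. Another, assigned to several adult alpha globin genes, had 2275.6, 1937.6 and 1292.6. Its wider step was between pools 2 and 3 (0.58 on the log2 scale, against 0.23 between pools 1 and 2), unlike that of Hba-a1. The third, again of adult beta globins, was under the floor in every pool (2.7, 35.2 and 78.8). With Hba-a1 and Hbb-b2, 4 of 5 adult globin probe sets were measured and all 4 had the order pool 1, pool 2, pool 3. Their fold differences ran from 1.74 to 2.02 for pool 1 over pool 3, from 1.17 to 1.74 for pool 1 over pool 2, and from 1.17 to 1.499 for pool 2 over pool 3. These probe sets bind related transcripts on the same arrays and are not independent replicates. The promoter windows of Hba-a1 and its neighbour Hba-a2 were identical over all 297 bases that could be compared. That match covers mostly sequence before the start and does not show which transcripts the probes bind. No probe sequences were compared. Some probe sets are assigned to several adult alpha or several adult beta globin genes at once. The signals called Hba-a1 and Hbb-b2 may likewise include transcripts of closely related genes.

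Embryonic globins gave little signal. Hba-x (the embryonic zeta chain) had 229.7, 191.5 and 243.9 in pools 1, 2 and 3, above the floor in all pools and lowest in pool 2. Hbb-bh1 (an embryonic beta-like chain) exceeded the floor only in pool 2, with 397.2, against 66.6 and 77.4 in pools 1 and 3. Of the probe sets for Hbb-y (the embryonic epsilon-like chain), one was under the floor in every pool (92.2, 63.7 and 58.7) and the other, of the f class, was above it in pool 1 alone (205.5, 35.3 and 20.3). Neither Hba-x nor Hbb-bh1 had the order of the adult globins. Both Hbb-y probe sets did, but with at most 1 pool above the floor their order rests on background signal. Hba-ps3, an alpha globin pseudogene outside the lists that was singled out after its values were seen, had 679.6, 517.1 and 607. Its highest pool was pool 1 as well, with a range of 1.31-fold. Of the other globins, myoglobin (Mb) was under the floor in every pool.

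The other enzymes of haem synthesis did not share the pattern of the globins. Of 8 genes of the pathway besides Alas2, 7 had a probe set and 6 were measured, all above the floor in every pool. Pool 1 was highest for 2 of the 6, pool 2 for 1 and pool 3 for 3. The median of their log2 signal in pool 1 less that in pool 3 was -0.17, against 0 for all measured genes. Alas1, the housekeeping counterpart of Alas2, had 850.1, 668.2 and 795.1 in pools 1, 2 and 3. Like Alas2 it was highest in pool 1 and lowest in pool 2. Alad, the next enzyme, had 776.5, 594.3 and 756.1, again lowest in pool 2. The later steps ran otherwise: Uros had 359.6, 568.6 and 633.5, and Cpox, by a probe set of the i class, had 248.7, 288.4 and 502.6. Both were lowest in pool 1, and each was more than 1.5-fold higher in pool 3 than in pool 1. Urod differed little, at 778.5, 816.2 and 706.4, and Ppox had 534.9, 472.6 and 696.4. Fech, which inserts the iron, was under the floor in every pool by a probe set of the r class (55.3, 73.7 and 12.6), so the final step was not measured.

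**Figure D3:**
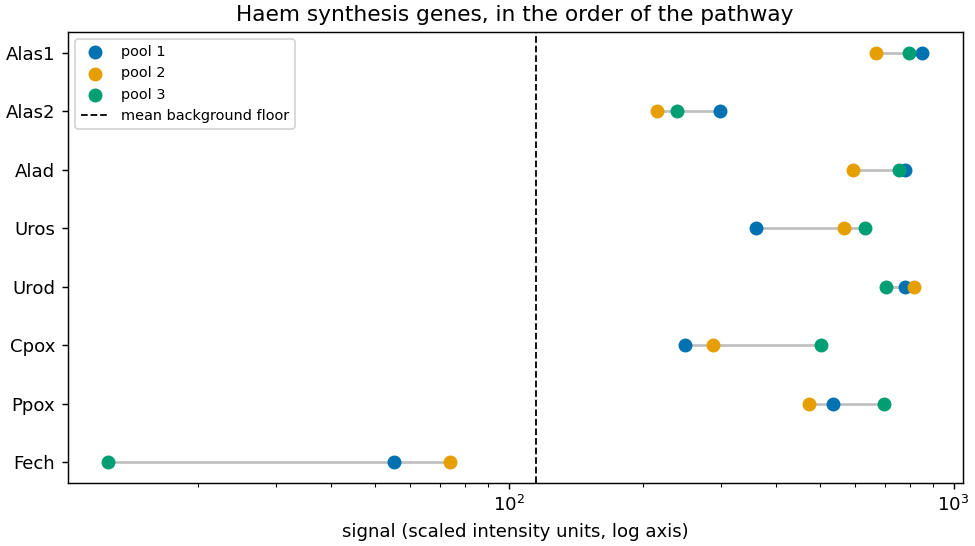
Signal of the haem synthesis genes with a probe set, listed from the start of the pathway to its end (horizontal log axis, scaled intensity units, 1 point per pool). Alas1, Alas2 and Alad are highest in pool 1 and lowest in pool 2, Uros and Cpox are lowest in pool 1, and Fech lies left of the dashed mean background floor.

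The wider erythroid programme was summarised by 6 lists: the globin family, haem synthesis, haem breakdown and iron handling, erythroid transcription factors and receptors, red cell membrane and skeleton, and red cell enzymes. Besides the members they held 97 genes, of which 61 had a probe set, 51 were measured and 44 were above the floor in every pool. Pool 1 was highest for 16 of the 51, against 34.6% of all measured genes, pool 2 for 17 and pool 3 for 18. More than 1.5-fold higher in pool 1 were 6 of 51 against pool 2 (10.3% of all measured genes) and 2 against pool 3 (10.9%). Higher than pool 1 by that fold were 7 in pool 2 (12.5%) and 10 in pool 3 (10.4%). Between pools 2 and 3, 6 were higher in pool 2 (10.7%) and 9 in pool 3 (8.74%). As a median over the 51 genes, log2 signal differed by 0.03 between pools 1 and 2 (first less second), by -0.08 between pools 1 and 3, and by -0.07 between pools 2 and 3. The same medians over all measured genes were 0, 0 and 0.01. The order of the adult globins was found for 7 of 51, against 17.2% of all measured genes: Hebp1, Cp, Hpx, Gata2, Lmo2, Ldb1 and Gpx1. Of these, Hebp1 and Hpx were under the floor in pool 3, so their order rests in part on background signal. A test for probe sets whose variance between pools exceeded the trend with signal called 18 of 8327 measured probe sets (limma, adjusted p below 0.05), or 0.216%. It called 0 of the 51 erythroid genes, of which 3 had an unadjusted p under 0.05 (Hbb-bh1, Dmtn and Cd24a), as had 317 of all 6210 measured genes, and its result is not read for the members.

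Several genes that define red cells and their precursors were at or near background, and others were above it. Slc4a1 (band 3, the anion exchanger of the red cell membrane) had 48.1 in pool 1, under the floor, and 140 and 179.1 in pools 2 and 3. It was thus lowest in the pool where the globins were highest. Epb42 (a protein of the red cell skeleton) exceeded the floor only in pool 2, with 151.6 by its brighter probe set, and Car1 (the carbonic anhydrase of red cells), Pklr (the red cell and liver pyruvate kinase) and Epor (the erythropoietin receptor) were under the floor in every pool. Rhag (an Rh-associated ammonia channel), by a probe set of the r class, had 242.6, 156.2 and 198.3, with pool 1 highest. Tspo2, an erythroid cholesterol-binding protein, had 309.8, 597.4 and 397.6, with pool 1 lowest. No single direction ran through these genes.

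Of the erythroid transcription factors and receptors, 13 of 14 genes had a probe set, 9 were measured and 6 of those were highest in pool 1 (Gata2, Lmo2, Ldb1, Zfpm1, Kit and Myb), against 34.6% of all measured genes. As a median, their log2 signal in pool 1 exceeded that in pool 2 by 0.30 and that in pool 3 by 0.29. Gata1, the central factor of the erythroid lineage, and Klf1 were not among the 6. Gata1 had 231.1, 136.9 and 286.7 by 1 probe set, of the f class, and 65.7, 145 and 189.5 by another, both with pool 3 highest. Klf1, which drives adult beta globin, had 167.7, 165.7 and 287.5, also highest in pool 3. Tal1 was under the floor in every pool and Nfe2 was above it in pool 1 alone. Of the 6 genes highest in pool 1, Zfpm1, a cofactor of Gata1, had 644.2, 554.8 and 556.3. Gata2 and Kit, a factor and a receptor of blood progenitors, had 493.3, 424.6 and 402.9, and 333.8, 270.6 and 284.6. Myb, a factor of progenitor cells, had 1210, 637.4 and 873.9 by a probe set of the s class. Further probe sets of Gata2 and Myb, both of the f class, were under the floor in every pool. Lmo2, an adaptor in the Gata1 complex that is also present in endothelium, had 550.3, 418.3 and 372.1. Ldb1, a widely expressed partner of Lmo2, had 913.7, 698.9 and 632.5. Gfi1b, a repressor of blood progenitors, had 261.8, 266.2 and 51.7, with pool 3 under the floor. None of the 9 passed the variance test (limma, adjusted p of 0.99 for Gata1, Klf1, Myb, Lmo2, Ldb1 and Gfi1b, and 1 for Gata2, Zfpm1 and Kit).

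Iron handling and red cell enzyme genes had no common order of pools. Fth1 (ferritin heavy chain, which stores iron) had 7070.9, 7373 and 11113.1 by its brighter probe set, of the r class, and 5368.4, 5886.8 and 5703 by another. The higher signal in pool 3 was thus seen with only 1 of its probe sets. Tfrc (the transferrin receptor) had 2919.8, 3162 and 2346.7 by its brighter probe set, of the g class, and 268.5, 247.7 and 348.6 by another. The brighter was lowest in pool 3 and the other highest there. Hmox1 (the inducible haem-degrading enzyme) had 879.8, 691 and 1038.3. Cp (ceruloplasmin, which oxidises iron for export) had the order of the globins with a smaller range, at 886.4, 867.3 and 709.4. Hp (haptoglobin, which binds free haemoglobin) had 235.7, 211.1 and 459.6, with pool 3 highest. Blvra, which converts biliverdin, was highest in pool 2, with 247, 507.4 and 203.1. Abcb10, a mitochondrial transporter needed for haem synthesis in red cell precursors, had 367.6, 183.9 and 281.3. Among the enzymes, Prdx2 had 8261.6, 9095.8 and 12745.3, highest in pool 3, and Car2, which is also a Müller glia gene, differed little, at 7104.6, 7816.2 and 7687.8. Gpx1 (glutathione peroxidase) had the order of the globins, at 952.8, 607.5 and 504. In the membrane list Bsg had 6570.1, 5548.9 and 6143.6, and Cd24a, also a marker of young neurons, had 3575.5, 2274.3 and 5935. Dmtn, a protein of the membrane skeleton, had 332.6, 793.4 and 485.9. None of these genes passed the variance test (limma, adjusted p of 0.47 for Cd24a, 0.83 for Dmtn and 0.97 for Blvra, and of 0.99 or 1 for the others).

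Markers of other cells and the quality of the arrays were read beside the members. Photoreceptor genes, which mark the labelled tissue, were present: 9 of 9 with a probe set were above the floor in every pool. Of 17 leukocyte genes on the array, 7 were measured, with summed signals of 1614, 1760 and 1526 in pools 1, 2 and 3. Pool 1 was highest for 2 of the 7 (Elane and Coro1a), against 34.6% of all measured genes, pool 2 for 3 and pool 3 for 2. Elane had the order of the globins, at 307.7, 209.2 and 52.7, with pool 3 under the floor. So had the dimmer of 2 Laptm5 probe sets, while the brighter was highest in pool 2. Ptprc, Lyz2, Cd3e, Cd3g, S100a9, Ngp, Cd79b and Cxcr2 were under the floor in every pool. Of 5 platelet genes, 3 were measured, with sums of 478.5, 516.3 and 791.3, and Pf4 was above the floor in pool 3 alone. The higher sum in pool 3 rests on Gp9, at 53.8, 53.5 and 367.9, which was under the floor in pools 1 and 2. Each pool was highest for 1 of the 3 genes. Of 5 plasma proteins of liver, 2 were measured, Alb and Afp, with sums of 317.7, 208.3 and 324.8. Alb had 141.8, 141.3 and 69.9, with pool 3 under the floor. Afp had 175.9, 67 and 254.9, with pool 2 under the floor. As genes of liver, they are not read as a measure of blood. Neither the leukocyte nor the platelet list had its highest sum in pool 1. Endothelial genes (8 of 10 measured) had sums of 2525, 2680 and 3454, and pericyte and smooth muscle genes (5 of 7) 1060, 955.5 and 1410, both highest in pool 3. Lens genes (11 of 12) had sums of 94914, 25460 and 203614 and pigment epithelium genes (4 of 7) 1434, 1381 and 2221. Neither followed the globins. Of the 11 lens genes, 8 passed the variance test (limma, adjusted p below 0.05), as did 14 of all 6210 measured genes. The 8 were Cryaa, Cryba1, Crybb2, Crygb, Crygc, Crygd, Cryge and Crygs, each highest in pool 3 and lowest in pool 2. Of 7 measured hypoxia response genes, 3 were highest in pool 1, against 34.6% of all measured genes. Vegfa, highest in pool 1, had 860, 518.5 and 522.7, whereas Bnip3 was lowest there, at 321.1, 591.6 and 459.1. Hif1a was highest in pool 3 by both of its probe sets, which are of the f class. In whole tissue, more globin-containing cells and more globin transcript per cell cannot be told apart.

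**Figure D4:**
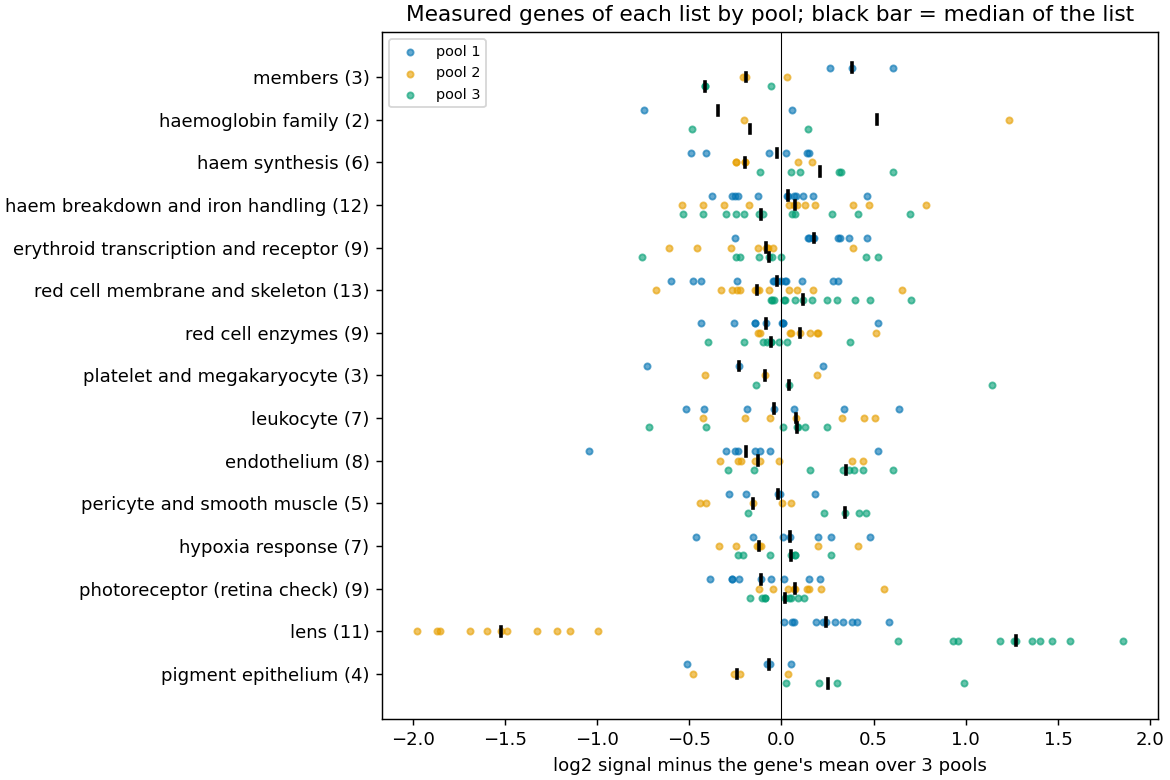
Log2 signal of each measured gene minus that gene's mean over the 3 pools (horizontal axis), by list, with the number of genes in brackets. Each point is 1 gene in 1 pool and the black bar is the median of the list in that pool. The 3 members lie to the right in pool 1, the lens genes are spread most widely, and the medians of the platelet and leukocyte lists are not highest in pool 1, while that of the erythroid transcription and receptor list is (0.18, against -0.08 and -0.07).

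Some measures of the arrays moved with the members. Pool 1 had 69.7% of probe sets above the floor, against 65.5% and 66.2%, and its floor was the lowest. The ratio of 3' to 5' signal for Actb, which rises with RNA degradation, was 1.10, 1.40 and 1.63 in pools 1, 2 and 3, the reverse of the order of the globins, while for Gapdh it was 0.82, 0.90 and 0.75. Xist, transcribed from the inactive X chromosome of females, was under the floor in pool 1 (69.5) and at 1384.4 and 1543.7 in pools 2 and 3, and Alas2 is itself X-linked. The part of RNA quality and of the sex of the mice in the members' signals was not tested.

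Genes with the pattern most like Hba-a1 were found by the distance between log2 signals centred on each gene's mean over the 3 arrays, among 3103 named genes with a mean above the median of measured genes. The nearest 5 were Jmjd6 (a distance of 0.022), Ptpn23 (0.033), Cherp (0.062), Slc27a1 (0.070) and Sox4 (0.096). Jmjd6 had signals of 1819.4, 1069.5 and 901.1 and Sox4 had 3446.9, 2099.2 and 1639.6 in pools 1, 2 and 3. None of the 5 is in the erythroid lists. Hbb-b2 lay at 0.32, with 80 of the 3103 genes nearer to Hba-a1 than it was, and Alas2 at 0.49, with 335 nearer. With only 3 arrays a small distance describes these pools and little more.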

How the data were processed

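The authors deposited 1 intensity per probe set and array of the Affymetrix U74Av2 chip, on a linear scale. The software that made them is not given in the sources used here. All arrays were already scaled (mean after trimming 500.3 on each), so no further scaling was applied. Of 12488 probe sets, 66 controls were left out; 10833 of the other 12422 carried 1 gene symbol. Before taking log2, values below an array's floor were raised to that floor. Those probe sets with a mean above the mean floor (8327) are called measured, and a gene was represented by its brightest probe set. Suffixes f, r, i, s and g mark probe sets chosen under relaxed rules or able to bind related transcripts.

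The variance test was an intercept-only limma fit (limma 3.58.1, R 4.3.3) with a robust F distribution and intensity trend, Benjamini-Hochberg adjusted over all measured probe sets, threshold 0.05. It was tested on simulated data with the same SD for all probe sets, so its handling of an intensity trend was not tested. The rest used Python 3.11.15, pandas 2.3.3, numpy 2.4.6 and matplotlib 3.10.9. Genes named were the members, list genes that passed the variance test, and the 5 most like Hba-a1. Up to 4 genes per list with the highest mean and up to 4 with the largest SD were named as well. Of these, genes on which no result turned were left out. Genes named beyond the rule (for a count, for their role as markers, or because they were under the floor) were chosen after their values were seen. Members and lists were chosen with earlier results of these data known. Alternatives were other floors, scalings, filters, a fold of 2, probe set choices and leaving out each pool. The number of arrays limits the precision.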

Additional observations from a re-analysis of the deposited data

How the results depend on the processing

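Every difference between pools for the 3 members kept its direction and moved by less than its SD over pools. The alternatives were another floor, no floor, quantile normalization, a common median and a stricter filter. All 3 members were above the floor in every pool, so the floors and the filter could not change their differences. Array medians were already alike (233.8, 233.6 and 233.3), so scaling to a common median could move them little. The difference that moved most was Hba-a1 in pool 2 less pool 3, from 0.22 to 0.41 with quantile normalization. Leaving out 1 pool gave SDs of log2 signal from 0.16 to 0.72 for Hba-a1, 0.25 to 0.57 for Hbb-b2 and 0.11 to 0.34 for Alas2. It gave 25 to 28 erythroid genes highest in pool 1, in place of 16, since only 2 pools are then compared. At a fold of 2, the erythroid genes past it numbered 0 for pool 1 over pool 2, 3 for pool 2 over pool 1, 1 for pool 1 over pool 3, 1 for pool 3 over pool 1, 3 for pool 2 over pool 3 and 3 for pool 3 over pool 2, a stricter count by construction. With genes above the floor on all arrays, 1 was higher in pool 1 than in pool 3. With probe sets without a class suffix, an alternative chosen after seeing the data, 3 were higher in pool 1 than in pool 2. The variance test (limma) called 18 probe sets, with 445 at an unadjusted p under 0.05. It called 11 with the floor at the median control, 11 with no floor, 6 with an ordinary fit, 0 with no intensity trend (377 at an unadjusted p under 0.05) and 4 to 40 without 1 pool, and the cause was not tested. No paired analysis was possible because the series has 1 group. Alas2, at most 2.98 times the floor, is the member whose differences the background limits most.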
